A study of Nothobranchius furzeri with 39 samples.

Results

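Livers of mutant and wild-type (WT) females were compared in Nothobranchius furzeri, the turquoise killifish, whose natural lifespan is a matter of months. They are the 6 livers labelled female among the 11 livers of fish aged 2 months that have counts. The whole series has 39 samples. The 6 are 2 of atm mutants (fish 1 and 2), 2 of atm cgas double mutants (fish 2 and 3) and 2 of WT fish (fish 3 and 4). The other 5 livers are of males: 1 atm mutant (fish 4), 2 double mutants (fish 1 and 4) and 2 WT fish (fish 1 and 2). The double mutants carry the atm mutation as well, so their comparison with WT is that of both mutations together. The added cgas mutation is seen only against atm mutants. The labels do not describe the alleles, the clutches or whether fish were pooled, and p-values therefore measure the spread between these samples.

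ATM is a kinase activated by DNA breaks. The product of cgas (mb21d1 in the gene table) is a sensor of cytosolic DNA upstream of STING. In egg-laying vertebrates the liver of a mature female makes vitellogenins, the precursors of egg yolk. Oestrogen from the ovary switches their genes on through oestrogen receptors, and the yolk proteins are translated into the endoplasmic reticulum (ER), folded, loaded with lipid and secreted into the blood. The female liver therefore carries a large secretory load that the male liver lacks, and the mutant females were set beside the difference between WT females and WT males.

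Total counts were 29.4 to 36.4 M (1 M is 1e+06 counts) in the mutant females, 25 and 26.8 M in the WT females and 26.7 to 36.8 M in the males. All 6 female livers had more rnf19a, a gene chosen after its values were seen, than any male liver. It stood at 27.0 to 32.5 counts per M (CPM, on TMM-scaled library sizes) in the mutant females and 29.8 and 23.4 CPM in the WT females, and at 10.02 to 18.7 CPM in the males. Counts of mb21d1 were 2 and 2 in atm mutant females, 0 and 0 in double mutant females and 6 and 5 in WT females, too few to check the cgas label. The gene atm had 66 to 85 counts in the mutant females and 39 and 42 in the WT females. Its level did not differ past the threshold (log2 fold change −0.07 ± 0.36 SE, adjusted p = 0.955, in atm mutants and −0.30 ± 0.36 SE, adjusted p = 0.701, in double mutants), and a count over the whole gene does not show a mutation. Double mutant male 4 and WT male 1 had 212 and 271 mb21d1 counts. They had 0.0972% and 0.0418% of their counts in immune cell markers, against at most 0.00759% in each of the other livers. These males enter the estimate of spread, so counts over all genes and of cell division genes are also given from the 6 females alone.

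Egg yolk and the most abundant female transcripts were low in every mutant female. Of the 6 genes with most counts in WT females vtg3 alone has a symbol, and the others are LOC107392619, LOC107388898, LOC107372943, LOC107388899 and LOC107392618. The 6 together took 3.85% and 8.35% of all counts in atm mutant females, 6.11% and 0.771% in double mutant females, and 43.0% and 49.8% in WT females. In the males they took 0.0295% to 0.172%. Every mutant female thus stood far below both WT females and above every male. In bulk liver, fewer cells of a type and less RNA per cell cannot be told apart.

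The one yolk gene with a symbol, the vitellogenin vtg3 (LOC107392704), had 1606 and 7061 CPM in atm mutant females, 3396 and 3.78 CPM in double mutant females, and 52128 and 65007 CPM in WT females. No male liver exceeded 0.962 CPM. Mutant and WT females did not overlap, but the mutants varied widely among themselves. Neither difference passed the threshold of 0.05: the log2 value was −3.76 ± 2.29 (SE, adjusted p = 0.491) for atm mutants and −5.11 ± 2.44 (adjusted p = 0.278) for double mutants. DESeq2, a second count model, did call the double mutants (adjusted p = 0.0126) and not the atm mutants (adjusted p = 0.143). Of the most abundant female transcripts named above, LOC107372943 and LOC107388898 passed the threshold in double mutants in edgeR, and none did in atm mutants. With both mutant groups taken as one LOC107388899 passed as well (adjusted p = 0.0337). For LOC107388898 the log2 fold change was −4.22 (adjusted p = 0.0442) in double mutants and −2.90 (adjusted p = 0.165) in atm mutants. LOC107372943 had 18270 and 31650 CPM in atm mutant females, 20423 and 4276 CPM in double mutant females and 119390 and 149540 CPM in WT females. The log2 fold change was −3.44 (adjusted p = 0.0374) in double mutants and −2.43 (adjusted p = 0.135) in atm mutants.

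The oestrogen receptor esr1 (LOC107377558), the receptor through which oestrogen drives vitellogenin in fish liver, had 423 and 679 CPM in atm mutant females, 381 and 27.8 CPM in double mutant females, and 1184 and 1117 CPM in WT females. Male livers had 12.2 to 16.6 CPM. Both WT females were above every mutant female, and double mutant fish 3 was nearest to the males for esr1 as for vtg3. The differences from WT did not pass the threshold in edgeR (log2 fold change −1.06 in atm mutants, adjusted p = 0.635, and −2.49 in double mutants, adjusted p = 0.187), while DESeq2 called the double mutants (adjusted p = 0.0216). The receptor gene esr2 had 161 and 154 CPM in atm mutant females, 114 and 109.8 CPM in double mutant females and 170.3 and 159.7 CPM in WT females (adjusted p = 0.892 and 0.122). A further receptor gene, esr2a (LOC107377794), had 57.2 and 49.4 CPM in atm mutant females, 49.7 and 54.6 CPM in double mutant females and 32.7 and 30.9 CPM in WT females (log2 fold change 0.75 and 0.71, adjusted p = 0.177 and 0.126). Levels of esr2 overlapped between atm mutant and WT females, and those of esr2a were higher in the 4 mutant females without passing the threshold. Of 20 egg envelope symbols listed 4 were found, and these held at most 0.0000986% of the counts of any female. Genes without a symbol were not searched, so this does not show that female livers lack egg envelope transcripts.

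**Figure D1:**
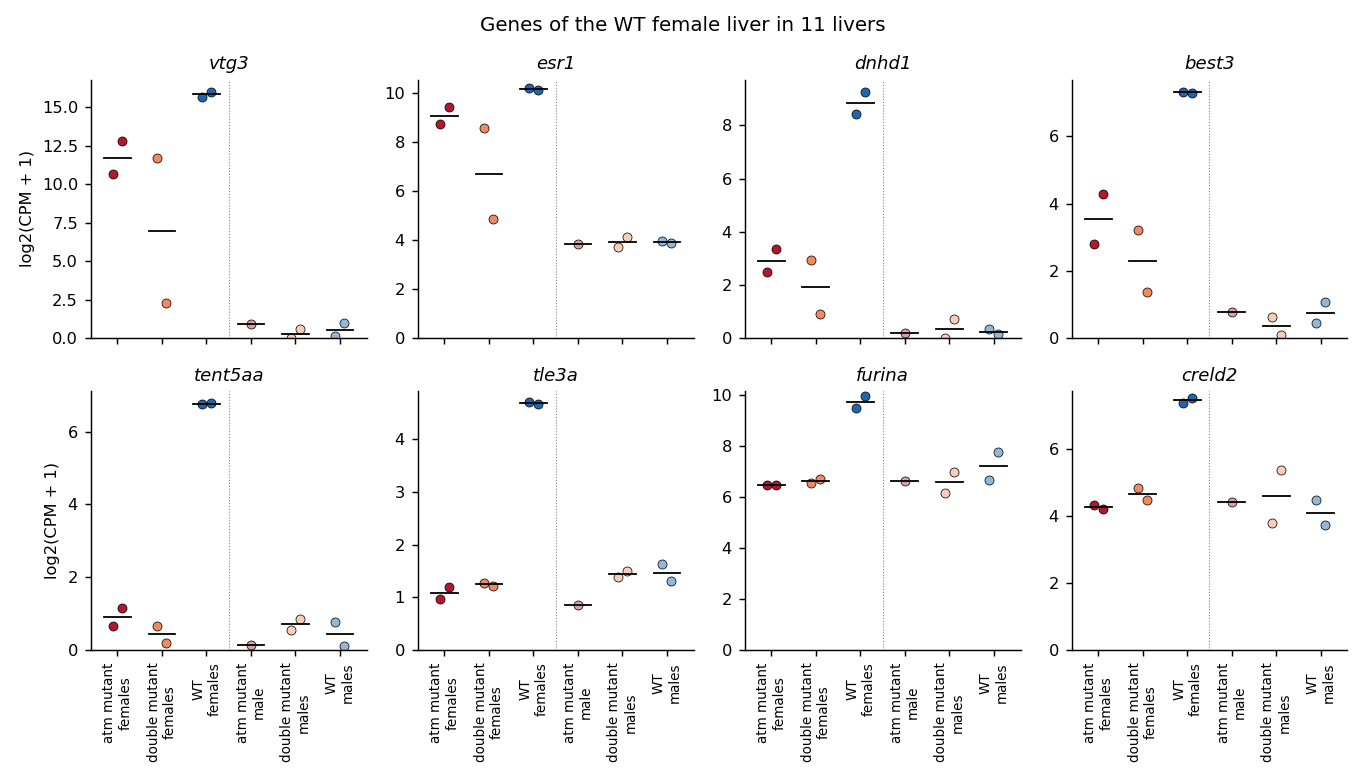
Levels of 8 genes in the 11 livers, as log2(CPM + 1), by group, each point a liver and each bar the mean of its group; the dotted line separates females from males. In vtg3, esr1, dnhd1 and best3 the mutant females lie between WT females and males, with double mutant fish 3 lowest, whereas in tent5aa, tle3a, furina and creld2 the 4 mutant females lie together near the males.

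In atm mutant females, 305 of 17849 genes tested passed the threshold against WT females (1.71%), 92 of them higher (0.515%) and 213 lower (1.19%). By the rule for named genes, those that fell most were tent5aa, gpr160 and susd2, and those that rose most were slc22a6l, sez6 and tbcela. Of the 20 genes named by rank, each of the 10 lower ones was also called higher in WT females than in WT males, and 6 of the 10 higher ones were called lower there. Of all genes tested, 2.74% were called higher and 1.42% lower in WT females than in WT males. The count among the named genes rests on the same WT females on both sides and is a description.

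The gene tent5aa (LOC107378903), of a family of enzymes that add adenosines to messenger RNA, had 0.562 and 1.21 CPM in atm mutant females and 107 and 108 CPM in WT females, and at most 0.793 CPM in males. It was 122-fold lower (log2 fold change −6.93 ± 0.85 SE, adjusted p = 0.018). The corepressor tle3a (LOC107388705) had 0.956 and 1.3 CPM in atm mutant females and 25.3 and 24.5 CPM in WT females, 22.0-fold lower (log2 fold change −4.46 ± 0.26 SE, adjusted p = 0.00178). Of this list tle3a had the smallest standard error, and it was also low in all 5 males, at 0.797 to 2.08 CPM.

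The other lower genes named by rank serve varied functions. The orphan receptor gpr160 had 0.113 and 0.929 CPM in atm mutant females and 27.4 and 46.0 CPM in WT females (adjusted p = 0.0303). The membrane protein gene susd2 had 0.281 and 0.682 CPM in atm mutant females and 24.9 and 35.7 CPM in WT females (adjusted p = 0.0109). The creatine transporter slc6a8 was 17.5-fold lower (adjusted p = 0.0413) and the ciliary neurotrophic factor receptor cntfr 10.3-fold lower (adjusted p = 0.0355). A gene of the secretory pathway, furina (LOC107381331), of the furin proteases that cut proproteins, had 86.6 and 87.3 CPM in atm mutant females and 708 and 980.1 CPM in WT females, 9.71-fold lower (adjusted p = 0.0215). The ER protein creld2, known as a gene of the unfolded protein response, had 19.1 and 17.4 CPM in atm mutant females and 165 and 183 CPM in WT females, 9.53-fold lower (adjusted p = 0.0407).

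Among the genes that rose, slc22a6l (LOC107386387), of the organic anion transporter family, had 20.5 and 15.9 CPM in atm mutant females and 0.340 and 0.292 CPM in WT females, against 169 to 278 CPM in males. The atm mutant females were 56.9-fold above WT females (log2 fold change 5.83 ± 0.52 SE, adjusted p = 0.00969) and still below each male. The fatty acid transporter slc27a6 had 284 and 200.2 CPM in atm mutant females and 28.1 and 25.2 CPM in WT females, 9.09-fold higher (adjusted p = 0.0314). The phosphatase dusp2 (LOC107394176), which inactivates MAP kinases, had 13.2 and 13.3 CPM in atm mutant females and 2.15 and 0.526 CPM in WT females (adjusted p = 0.0367). The efflux transporter abcb1 had 7.85 and 6.91 CPM in atm mutant females and 1.13 and 0.643 CPM in WT females (adjusted p = 0.0416). The count of 305 depended on the setting. It was 3217 (1563 higher and 1654 lower) from the 6 females alone, 1018 with DESeq2, 1325 (1218 higher) with library sizes alone, and 3 or 4 when any 1 of the 4 livers compared was left out. With both mutant groups taken as one, 822 genes differed from WT females (4.61%), 260 higher (1.46%) and 562 lower (3.15%).

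In double mutant females, 915 genes passed the threshold against WT females (5.13%), 375 higher (2.10%) and 540 lower (3.03%). The genes that fell most included tent5aa, gpr160 and susd2, as in atm mutants with the same WT females, together with dnhd1, gnrh2, sqle and mfsd2a. The genes that rose most were vsx1, pck1, csgr04h6orf58, slc22a6l and odc1. The count was 4853 (2446 higher and 2407 lower) from the 6 females alone and 1853 with DESeq2, and 4912 (4702 higher) with library sizes alone. It was 51 without double mutant fish 2, 6 without double mutant fish 3, 20 without WT fish 3 and 6 without WT fish 4.

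The dynein domain gene dnhd1 had 6.73 and 0.895 CPM in double mutant females and 347 and 611 CPM in WT females, and at most 0.650 CPM in males. It was 125-fold lower (log2 fold change −6.97 ± 1.36 SE, adjusted p = 0.0349), with double mutant fish 3 just above the highest male. The hormone gene gnrh2, of the gonadotropin-releasing hormone family, had 0.257 and 0.289 CPM against 35.0 and 9.87 CPM in WT females (adjusted p = 0.0238). The lysolipid transporter mfsd2a had 11 and 6.96 CPM in double mutant females and 507 and 460.3 CPM in WT females, 53.9-fold lower (adjusted p = 0.00787). It had 63.5 and 135 CPM in atm mutant females. Unlike tent5aa, mfsd2a was lower in double mutant females than in any male, whose levels were 20.8 to 97.5 CPM.

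Among the genes higher in double mutant females, pck1, the entry enzyme of gluconeogenesis, had 1578 and 2299.7 CPM in double mutant females and 5.72 and 31.0 CPM in WT females (log2 fold change 6.72 ± 1.5 SE, adjusted p = 0.0482). It had 736 and 1154 CPM in atm mutant females, where the difference did not pass the threshold (adjusted p = 0.111), and 120.2 to 2168 CPM in males. The ornithine decarboxylase gene odc1, of the first step of polyamine synthesis, had 135 and 247 CPM in double mutant females and 8.04 and 4.73 CPM in WT females, 29.9-fold higher (adjusted p = 0.00904). It stood at 19.4 and 19 CPM in atm mutant females and at 2.57 to 35.4 CPM in males, so both double mutant females were above all other livers. The gene egln3, of the prolyl hydroxylases that act on the hypoxia factor HIF, was also highest in both double mutant females. It had 9.69 and 34.8 CPM in double mutant females, 2.36 and 2.04 CPM in atm mutant females and 1.47 and 0.701 CPM in WT females (adjusted p = 0.0196 for double mutants against WT).

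Part of the machinery that folds secreted proteins was lower in both groups of mutant females. Of 40 genes of ER folding and the unfolded protein response tested, 8 fell and 0 rose in atm mutant females, and 10 fell and 1 rose in double mutant females. That is 20% and 27.5% called, beside 1.71% and 5.13% of all genes tested. The median log2 fold change was −1.08 and −0.69, beside 0.01 and 0.02 over all genes tested. Unadjusted p was under 0.05 for 26 of the 40 in atm mutants, each of them lower, and for 23 in double mutants, 22 of them lower; over all 17849 genes it was under 0.05 for 2796 and 3910. Taken per liver, the median member stood at 50.3% and 45.4% of its WT female mean in atm mutant females, 59.9% and 63.0% in double mutant females, and 44.8% to 75.5% in males.

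The lower genes included stress sensors of the ER as well as folding enzymes. The sensor ern1 (IRE1) had 40.4 and 39.6 CPM in atm mutant females, 42.2 and 35.9 CPM in double mutant females, and 113 and 130 CPM in WT females (adjusted p = 0.0186 and 0.00992). The sensor eif2ak3 (PERK) had 18.7 and 16.3 CPM in atm mutant females, 18.3 and 16.5 CPM in double mutant females, and 41.9 and 36.5 CPM in WT females (adjusted p = 0.0344 and 0.0178). The reductase dnajc10 had 13.5 and 16.6 CPM in atm mutant females, 11.3 and 9.12 CPM in double mutant females and 43.9 and 45.8 CPM in WT females (adjusted p = 0.0234 and 0.00747). In these genes all 4 mutant females lay below both WT females and within or close to the males. A different order was seen in hspa5, which encodes the main ER chaperone BiP, with 49.7 and 30.0 CPM in atm mutant females, 609.9 and 508 CPM in double mutant females and 122 and 78.2 CPM in WT females. It rose 5.6-fold in double mutant females (adjusted p = 0.0429). Its co-chaperone dnajc3 fell there, with 24.4 and 26.1 CPM in double mutant females and 47.8 and 41.7 CPM in WT females (adjusted p = 0.0488).

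Some genes of entry into the ER and export from it were lower too. Of 59 genes tested, 9 fell and 0 rose in atm mutant females, and 16 fell and 2 rose in double mutant females, with a median log2 fold change of −0.70 and −0.69. The share called was 15.3% and 30.5%, beside the same 1.71% and 5.13% of all genes. The translocon-associated protein ssr4 had 295 and 310 CPM in atm mutant females, 304 and 259.6 CPM in double mutant females and 655 and 663 CPM in WT females (adjusted p = 0.0464 and 0.0208). The signal recognition particle receptor srpra had 32.0 and 27.4 CPM in atm mutant females, 38.7 and 39.7 CPM in double mutant females and 83.5 and 81.3 CPM in WT females (adjusted p = 0.0209 and 0.0269). The cargo receptor surf4 (adjusted p = 0.0367 and 0.0429), the export factor mia3 (adjusted p = 0.046 and 0.0186), the oligosaccharyltransferase subunit ostc (adjusted p = 0.0332 and 0.014) and the KDEL receptor kdelr3 (LOC107376262, adjusted p = 0.0307 and 0.0147) also fell in both mutant groups. The 2 that rose in double mutants were the channel subunit sec61a1a (LOC107385720), with 52.4 and 44.0 CPM against 19 and 12.1 CPM in WT females (adjusted p = 0.0385), and srp14. The signal recognition particle gene srp14 had 16.8 and 15.4 CPM in double mutant females and 7.70 and 5.61 CPM in WT females (adjusted p = 0.0169).

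These directions are relative to the TMM scaling, which allows for the share of counts taken by the most abundant genes. With library sizes alone the median over all genes moved to 0.519 in atm mutants and 0.806 in double mutants. The median of the folding list then was −0.58 and 0.10, and that of the entry and export list −0.19 and 0.10, so that the sign turned in double mutants while both lists stayed below the median of all genes. Without any 1 of the livers compared, at most 1 gene of either list passed the threshold, and the medians kept their sign.

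**Figure D2:**
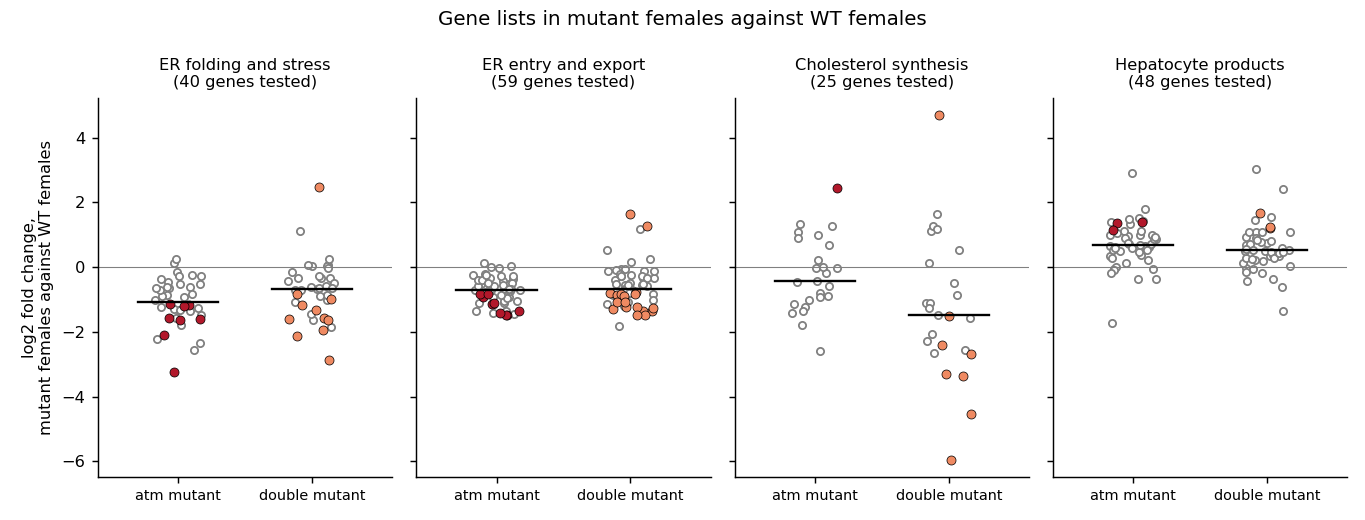
Log2 fold change of each gene tested of 4 gene lists, in atm mutant and double mutant females against WT females; filled points passed an adjusted p of 0.05, open points did not, and bars are list medians. Both ER lists lie mostly below 0 in both mutants, and hepatocyte products mostly above 0. Cholesterol synthesis has its filled low points in double mutants only, with soat2 filled and above 0 in both; with library sizes alone the ER medians turn to just above 0 in double mutants.

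Between WT females and WT males, 743 genes passed the threshold (4.16%), 489 higher in females (2.74%) and 254 lower (1.42%). Of the 489 genes, 195 were lower (39.9%) and 0 higher in atm mutant females than in WT females. In double mutant females 314 were lower (64.2%) and 2 higher. The median log2 fold changes were −1.25 and −1.33. Of the 254 genes lower in WT females, 63 were higher (24.8%) and 0 lower in atm mutant females. In double mutant females 98 were higher (38.6%) and 0 lower. The medians were 1.02 and 0.95. Over all genes tested, 1.19% were lower and 0.515% higher in atm mutant females, and 3.03% lower and 2.10% higher in double mutant females. Both comparisons share the WT females, so these counts are a description with no test. Without WT female 4 the female-higher set shrank to 12 genes, and without WT female 3 to 47.

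On a scale where each gene is 0 at the mean of WT males and 1 at the mean of WT females, the median of the 489 genes was 0.234 and 0.246 in atm mutant females and 0.228 and 0.118 in double mutant females, and 0 to 0.0518 in mutant males. For the 254 genes it was 0.237 and 0.261 in atm mutant females, 0.370 and 0.345 in double mutant females, and −0.00371 to 0.172 in mutant males. On this scale the mutant females lay much nearer to WT males than to WT females in both sets. The same WT fish chose the genes and set the ends of the scale, so these positions are a description. Set directly against WT males, 2 genes passed the threshold in atm mutant females (0.0112%), 1 higher and 1 lower (0.0056% each). In double mutant females 108 genes did (0.605%), 63 higher (0.353%) and 45 lower (0.252%). For scale, double mutant males differed from WT males in 1 gene, higher (0.0056%). The 2 genes of atm mutant females were LOC107388367 and lpcat4, an acyltransferase of phospholipid remodelling. The former was higher (log2 fold change 3.49, adjusted p = 0.021) and the latter lower (log2 fold change −4.54, adjusted p = 0.00367). So few calls do not show likeness to males, because large differences also missed the threshold. In atm mutant females against WT males the log2 fold change was 13.05 for vtg3 (adjusted p = 0.556). It was 5.28 for esr1 (adjusted p = 0.358) and 5.25 for LOC107372943 (adjusted p = 0.189). Against WT males DESeq2 called 0.848% of genes in atm mutant females and 3.66% in double mutant females.

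**Figure D3:**
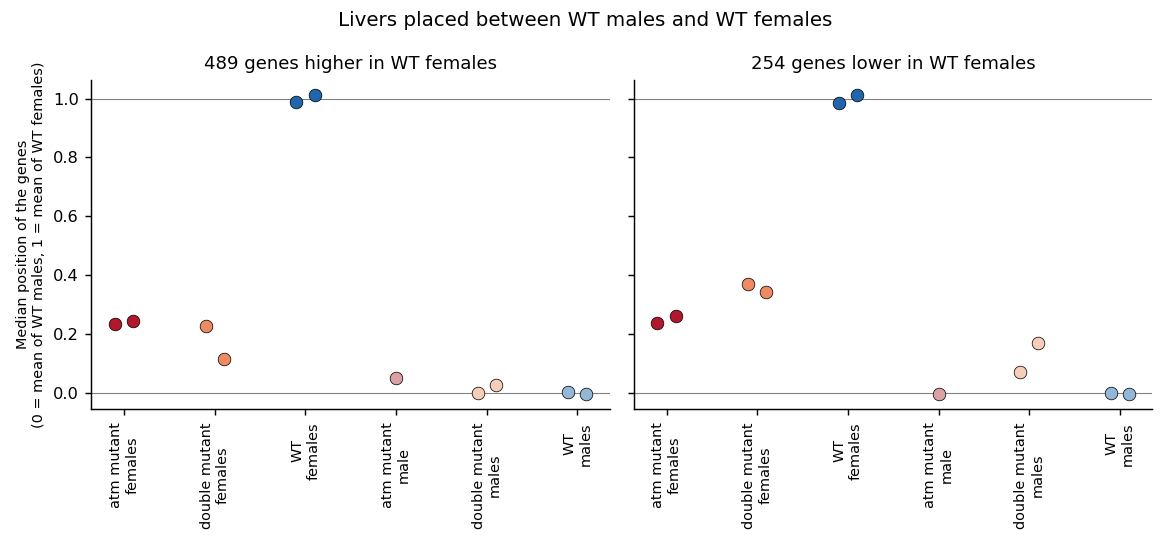
Median position of each liver over the 489 genes higher and the 254 genes lower in WT females than in WT males, where 0 is the mean of WT males and 1 that of WT females (both fixed by the choice of genes). Mutant females lie between 0.118 and 0.370, and mutant males between −0.00371 and 0.172.

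Some genes kept a wide difference from males in the mutant females. The level of lpcat4 was 2.45 and 2.54 CPM in atm mutant females, 3.26 and 2.31 CPM in double mutant females and 1.41 and 1.52 CPM in WT females, against 56.2 to 82.7 CPM in males. All 6 females were thus far below all 5 males, double mutant fish 3 included. A comparison that shares no fish with the WT one is that of double mutant females with double mutant males, in which 100 genes passed the threshold (0.560%), 49 higher (0.275%) and 51 lower (0.286%). Of the 489 genes, 21 were higher and 0 lower there (4.29%), and of the 254 genes, 9 were lower and 1 higher (3.54% lower). The median log2 difference over the sets was 0.30 and −0.27, beside 1.64 and −1.5 between WT females and WT males. The WT fish chose these genes by that same difference, which widens the WT medians. The medians are therefore not on equal terms and are a description. Without double mutant male 1, with the sets chosen again, the medians between double mutant sexes were 0.40 and −0.01. The second set then showed no direction. Without double mutant male 4 the medians were 0.21 and −0.24. The 21 genes included LOC107388898, LOC107388899 and LOC107372943 of the 6 most abundant female transcripts. They also included abcd2, a transporter of very long chain fatty acids into peroxisomes, and mat2al (LOC107374806), of the methionine adenosyltransferases.

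The count between double mutant sexes rested on single fish: it was 3024 without double mutant male 1, 269 without male 4, 6 without female 2 and 20 without female 3. The count between WT females and WT males was 15 without WT female 4, 56 without WT female 3, 310 without WT male 1 and 264 without WT male 2.

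In double mutant females 7 genes of cholesterol synthesis fell and the gene that esterifies cholesterol rose. The 25 genes tested included the 7 that fell, among them srebf2, sqle, lss, cyp51, tm7sf2 and msmo1, and the 1 that rose, soat2, with a list median of −1.49. These are 32.0% of the list called in double mutants and 4.00% in atm mutants, beside 5.13% and 1.71% of all genes tested. In atm mutant females 0 fell and 1 rose, again soat2, with a median of −0.44, which turned to 0.07 with library sizes alone. The median member stood at 78.7% and 67.3% of its WT female mean in atm mutant females, 34.5% and 35.4% in double mutant females, 412% and 130% in double mutant males 1 and 4, and 93.2% to 126% in the other males. The double mutant females were thus the lowest livers by this median and the double mutant males the highest.

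Squalene epoxidase, sqle, which makes the first oxygenated sterol precursor, had 0.771 and 0.462 CPM in double mutant females, 5.74 and 7.13 CPM in atm mutant females and 37.7 and 39.0 CPM in WT females. It had 299.6 and 114 CPM in double mutant males and 7.02 to 15.7 CPM in the other males. Double mutant females were 61.5-fold below WT females (log2 fold change −5.94 ± 0.64 SE, adjusted p = 0.00787). The demethylase cyp51 (LOC107394621) had 3.67 and 3.38 CPM in double mutant females, 53.9 and 53.8 CPM in atm mutant females and 95.9 and 66.7 CPM in WT females, 23.0-fold lower in double mutants (adjusted p = 0.0196). In double mutant males cyp51 had 837 and 159 CPM. The regulator of the pathway, srebf2, had 15.0 and 17.9 CPM in double mutant females, 30.3 and 37.0 CPM in atm mutant females and 55.0 and 38.0 CPM in WT females (adjusted p = 0.0429). In double mutant males srebf2 had 317 and 174 CPM.

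The acyltransferase soat2 (LOC107385327), which stores cholesterol as its ester, ran the other way. It had 38.3 and 30.2 CPM in double mutant females, 7.79 and 6.57 CPM in atm mutant females, 1.53 and 1.11 CPM in WT females, and 0.0784 and 0.0407 CPM (3 and 2 counts) in double mutant males. It was 25.9-fold above WT in double mutant females (adjusted p = 0.00327) and 5.43-fold in atm mutant females (adjusted p = 0.0234). Whether the double mutant effect differed between the sexes was tested as an interaction, in which 57 genes passed the threshold (0.319%), 12 with a higher difference in females (0.0672%) and 45 with a lower one (0.252%). They included 6 lower genes of the 25 (srebf2, sqle, lss, cyp51, tm7sf2 and ebp), with a list median of −3.63, and soat2, higher (log2 difference 8.79, adjusted p = 0.00826). The size of the soat2 difference is uncertain, because it rests on 3 and 2 counts in double mutant males. The 57 became 1994 without double mutant male 1, 410 without double mutant male 4, 10 and 1 without WT male 1 and 2, and 0 without any 1 of the 4 females. Of the 45 genes with a lower difference, 31 had been called higher in WT females than in WT males (2.74% of all genes were). Of the 12 with a higher one, 7 had been called lower there (1.42% of all genes were). The interaction contains the WT sex difference with its sign turned, so this overlap is partly built in and is a description. In double mutant against WT females soat2 alone of the 25 was called when 1 liver was left out, in 3 of the 4 cases (adjusted p = 0.0737 without WT female 4).

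**Figure D4:**
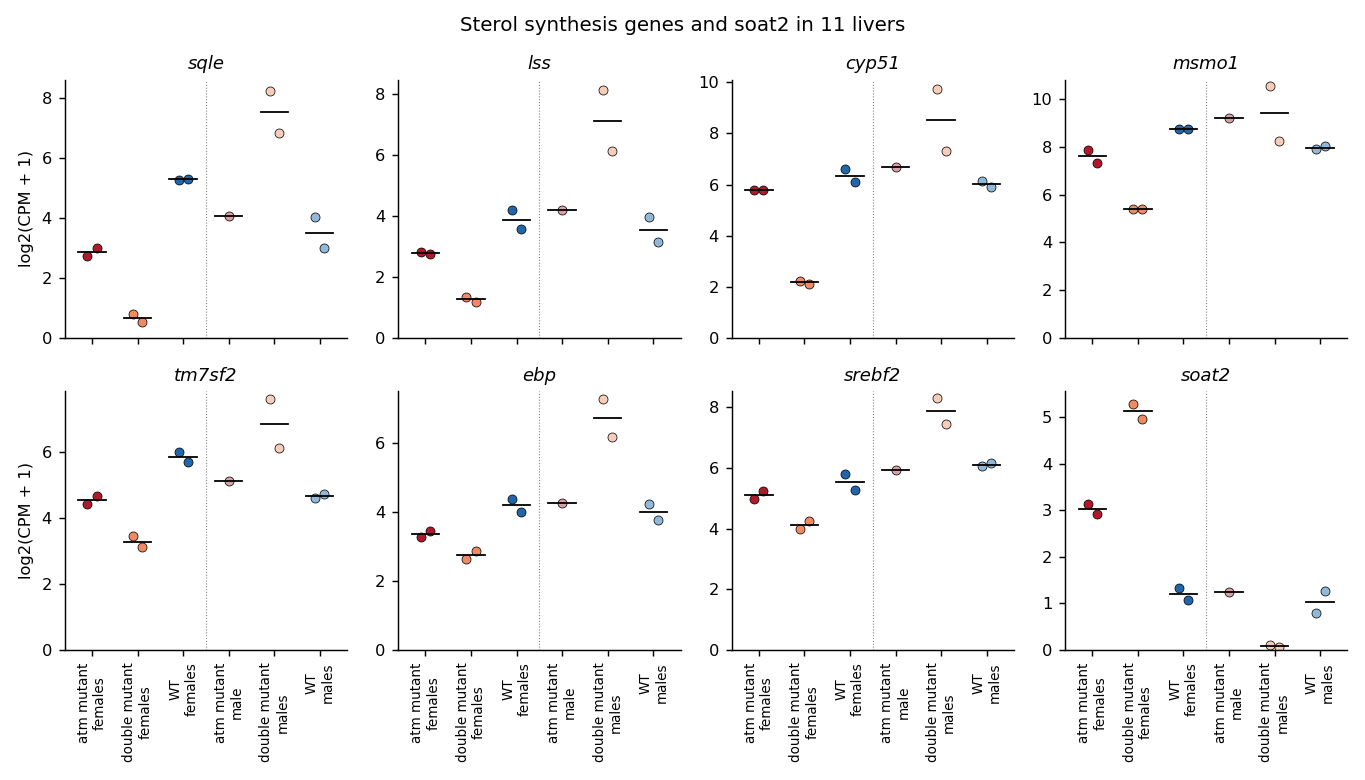
Levels of 7 genes of cholesterol synthesis and of soat2 in the 11 livers, as log2(CPM + 1), each point a liver and each bar the mean of its group. Double mutant females are the lowest group and double mutant males the highest in the 7 genes, of which ebp did not pass the threshold in double mutant against WT females; for soat2 double mutant females are highest and double mutant males lowest.

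Against atm mutant females, double mutant females differed in 46 genes (0.258%), 35 higher (0.196%) and 11 lower (0.0616%). The coactivator pprc1, related to PGC-1, had 49.1 and 61.9 CPM in double mutant females, 6.05 and 5.51 CPM in atm mutant females and 6.17 and 5.32 CPM in WT females. It was 9.59-fold higher than in atm mutants (log2 fold change 3.26 ± 0.19 SE, adjusted p = 0.00291) and passed the interaction of sex and genotype (adjusted p = 0.0185). All males had 5.46 to 9.33 CPM. The Hsp70-family gene hspa13 had 27.0 and 28.1 CPM in double mutant females and 4.11 and 2.91 CPM in atm mutant females (adjusted p = 0.00804). The clock repressor bhlhe41 had 31.0 and 24.8 CPM in double mutant females and 4.19 and 3.66 CPM in atm mutant females (adjusted p = 0.00611). Both stood at the atm mutant level or slightly above it in WT females, with 6.11 and 5.02 CPM of hspa13 and 4.81 and 4.62 CPM of bhlhe41.

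The growth arrest gene gadd45g was lower, with 4.75 and 5.66 CPM in double mutant females and 74.2 and 54.8 CPM in atm mutant females (adjusted p = 0.0476). So was the fatty acid desaturase scd (LOC107387822), with 0.411 and 0.173 CPM in double mutant females and 7.59 and 18.3 CPM in atm mutant females (adjusted p = 0.0476). The gene nelfa, of the negative elongation factor complex, had 13.6 and 9.61 CPM in double mutant females and 47.5 and 52.3 CPM in atm mutant females (adjusted p = 0.0239). The inositol phosphate kinase ip6k2 had 18.6 and 19.9 CPM in double mutant females and 70.9 and 92.2 CPM in atm mutant females (adjusted p = 0.0239). In these genes WT females were nearer to the atm mutants. The double mutant females were close to each other in these genes, unlike in vtg3 and esr1. Genes named for passing the threshold with so few fish tend to have close replicates, so this contrast follows in part from their choice. The count of 46 was 1800 from the 6 females alone, 437 with DESeq2, 27 without the robust option and 0 to 2 when any 1 of the 4 livers was left out.

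**Figure D5:**
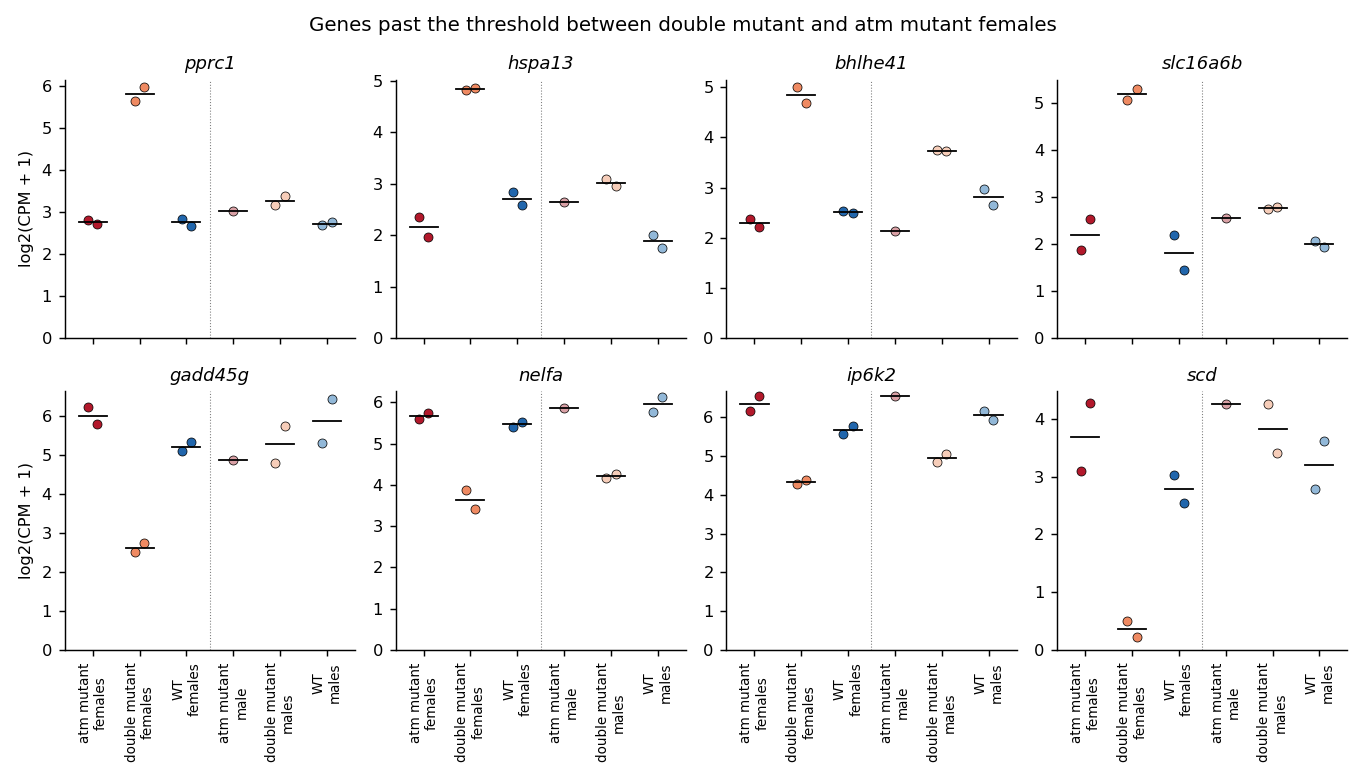
Levels of 8 genes that passed the threshold between double mutant and atm mutant females, as log2(CPM + 1), each point a liver and each bar the mean of its group. Both double mutant females lie above the other females in pprc1, hspa13, bhlhe41 and slc16a6b and below them in gadd45g, nelfa, ip6k2 and scd.

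Most genes of hepatocyte products had a positive log2 fold change in mutant females, and a few passed the threshold. Of 48 tested, 3 rose and 0 fell in each mutant group (fgg, tfa and serpinf2 in atm mutants, fgg, tfa and apoa1a in double mutants), with medians of 0.69 and 0.52. The share called was 6.25% in each, beside 1.71% and 5.13% of all genes, so that in double mutants it was near the background. In each, 40 of the 48 had a positive log2 fold change. The transferrin gene tfa (LOC107383970) had 21870 and 19002 CPM in atm mutant females, 17718 and 20137 CPM in double mutant females and 8163 and 7732 CPM in WT females (adjusted p = 0.046 and 0.0321). Males had 15166 to 26660 CPM. The list took 22.0% and 20.2% of all counts in atm mutant females, 20.7% and 24.3% in double mutant females and 7.03% and 6.28% in WT females. The 6 most abundant genes took 43.0% and 49.8% of all counts in WT females. On the TMM scale the gap was smaller. The list then had 224600 and 215080 CPM in atm mutant females, 180620 and 206330 CPM in double mutant females and 99443 and 98149 CPM in WT females.

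Lipid and fasting genes moved in both directions. Of 40 genes of lipid synthesis and transport tested, 1 rose and 2 fell in atm mutant females, and 3 rose and 3 fell in double mutant females (7.5% and 15.0% called, beside 1.71% and 5.13% of all genes). The choline kinase chka (LOC107389246) fell in both: it had 46.4 and 42.3 CPM in atm mutant females, 35.9 and 19.9 CPM in double mutant females and 139 and 142 CPM in WT females (adjusted p = 0.0493 and 0.0128). The apolipoprotein apoeb (LOC107379395) fell in double mutants, with 298 and 283 CPM against 1483 and 1418 CPM in WT females (adjusted p = 0.0124). The gene mttp, which loads lipid onto lipoproteins, fell in atm mutants, with 45.4 and 39.9 CPM against 112 and 116 CPM in WT females (adjusted p = 0.0154). Of 36 fasting and gluconeogenesis genes tested, 1 rose and 2 fell in atm mutant females, and 2 rose and 3 fell in double mutant females (8.33% and 13.9% called). The haem synthesis gene alas1 (adjusted p = 0.0498 and 0.00787) and the fatty acid oxidation gene cpt1b (adjusted p = 0.04999 and 0.0232) fell in both. The pseudokinase gene trib1 (LOC107394734), which lowers hepatic lipogenesis in mice, rose in both. It had 14.1 and 15.8 CPM in atm mutant females, 13.2 and 12.6 CPM in double mutant females and 3.06 and 3.45 CPM in WT females (adjusted p = 0.0169 and 0.0118).

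Genes of the p53, interferon, cGAS and STING, and clock lists were counted against the same background of 1.71% of all genes called in atm mutants and 5.13% in double mutants. Unadjusted p was under 0.05 for 2796 and 3910 of all 17849 genes. Of 40 p53 targets tested, edgeR called 0 in atm mutant females (5 with unadjusted p under 0.05, and 2 with DESeq2). In double mutant females cdkn1a (LOC107385762), the cell cycle inhibitor, rose while ccng1 and gadd45g fell, 7.5% of the list. Levels of cdkn1a were 22.0 and 65.9 CPM in double mutant females, 14.5 and 18.1 CPM in atm mutant females and 7.07 and 3.39 CPM in WT females (adjusted p = 0.0482 in double mutants and 0.291 in atm mutants). Of 35 interferon-response genes tested, edgeR called 0 in atm mutants (1 with unadjusted p under 0.05, and 0 with DESeq2). The guanylate-binding protein gene gbp (LOC107379012) alone fell in double mutants, with 7.91 and 11.7 CPM against 25.5 and 23.3 CPM in WT females (adjusted p = 0.0333), 2.86% of the list. Both shares in double mutants were near the background. Of 20 genes of the cGAS and STING pathway tested, edgeR called 0 in each (0 and 2 with unadjusted p under 0.05 in atm and double mutants, and 0 and 1 with DESeq2). Interferon list medians were −0.35 and −0.31 in atm and double mutants, beside 0.01 and 0.02 over all genes. Summed interferon levels were 1105 and 1391 CPM in double mutant male 4 and WT male 1, and 433 to 544 CPM in the other males. The gene sting1 (LOC107380073) had 982 and 455 counts in those males and at most 10 in any other liver. This spread enters the fit, so few or 0 calls do not show that these lists were unchanged. Of 31 clock genes tested edgeR called 0 in atm mutants (5 with unadjusted p under 0.05, and 1 with DESeq2) and bhlhe41 alone rose in double mutants (3.23%).

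Cell division genes had positive medians of 1.46 and 1.94 in atm and double mutant females, with 45 of 52 genes above 0 in each, but edgeR called 0 of the 52 tested in either. With unadjusted p under 0.05 there were 4 and 10, with DESeq2 2 and 8, and from the 6 females alone 15 and 35, of which 1 was lower in double mutants. Over all genes, unadjusted p was under 0.05 for 2796 and 3910 of 17849. DESeq2 called 1018 and 1853 genes, and the 6 females alone gave 3217 and 4853. Both unadjusted shares of the list were below those of all genes. From the 6 females alone both shares called were above those of all genes, and with DESeq2 this held in double mutants only. The summed level of the list was 0.0129% and 0.0137% of counts in atm mutant females, 0.0284% and 0.0177% in double mutant females, and 0.00402% and 0.00406% in WT females. On the TMM scale it was 132 and 146 CPM in atm mutant females, 248 and 151 CPM in double mutant females, and 56.9 and 63.5 CPM in WT females. Growth hormone axis genes gave 0 calls of 18 tested in edgeR (0 and 3 with unadjusted p under 0.05 in atm and double mutants, and 0 and 1 with DESeq2). Of 23 oestrogen signalling genes tested, the corepressor ncor1 was higher in atm mutants (adjusted p = 0.0449) and the liver factor foxa2 lower in double mutants (adjusted p = 0.0361). Each is 1 gene, 4.35% of the list, beside 1.71% of all genes called in atm mutants and 5.13% in double mutants.

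Markers of other tissues were summed as shares of all counts. Endocrine pancreas markers, 10 tested of 11 found, took 0.0149% of counts in atm mutant fish 2 and 0.00976% in double mutant fish 2, and at most 0.0000612% in the other 4 females. Exocrine pancreas markers, 8 of 8 tested, took 0.0454% in atm mutant fish 1, 0.0236% in double mutant fish 2 and 0.00429% to 0.0101% in the other females. In edgeR 0 of these genes passed the threshold against WT (2 endocrine ones had unadjusted p under 0.05 in atm mutants and 0 in double mutants). Intestine markers, 13 tested of 16 found, took 0.000278% and 0.00651% in atm mutant fish 1 and 2, 0.00149% and 0.000452% in double mutant fish 2 and 3, and 0.000212% and 0.00031% in WT females. Among the females, the livers highest in intestine markers, atm mutant fish 2 and double mutant fish 2, were the same that were highest in endocrine ones. In the males intestine markers took 0.000262% to 0.0102%, with most in WT male 1. In edgeR 0 of the 13 were called (0 and 1 with unadjusted p under 0.05 in atm and double mutants). Over all 17849 genes, 1.71% and 5.13% were called in atm and double mutants, and 2796 and 3910 had unadjusted p under 0.05. At these shares lists this short give few calls or none, so the 0 calls say little about these markers. Ovary markers, 6 tested of 20 found, took 0.000259% to 0.000424% of counts in mutant females and 0.000148% and 0.0000747% in WT females, which is 2.31 to 3.70 CPM and 2.09 and 1.17 CPM on the TMM scale. The oocyte markers figla, nobox, gdf9 and zar1 were too low to be tested.

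Markers of the liver's own minor cell types were summed both as shares of all counts, of which the 6 most abundant genes took 43.0% and 49.8% in WT females, and on the TMM scale. Over all 17849 genes, 1.71% were called in atm mutants and 5.13% in double mutants, and 2796 and 3910 had unadjusted p under 0.05. Stellate cell and fibroblast markers took 0.0218% to 0.0343% in mutant females and 0.0087% and 0.00903% in WT females, or 198 to 351 CPM and 123 and 141 CPM on the TMM scale, and 0 of 23 tested were called (3 and 1 with unadjusted p under 0.05 in atm and double mutants). Bile duct markers took 0.0649% to 0.0859% in mutant females and 0.0336% and 0.0283% in WT females, or 640.2 to 750.3 CPM and 476 and 443 CPM. Of 8 tested epcam alone rose, in double mutants (12.5% of the list, adjusted p = 0.047). Endothelial markers took 0.0186% to 0.0235% in mutant females and 0.0124% and 0.0133% in WT females, but 178 to 215 CPM and 176 and 207 CPM, which overlap. Of 27 tested aplnrb (LOC107373040) alone fell, in double mutants (3.70% of the list, adjusted p = 0.0324). Immune cell markers took 0.00484% to 0.00724% in mutant females and 0.00445% and 0.0034% in WT females, but 49.4 to 74.4 CPM and 63.0 and 53.1 CPM, which overlap, and 0 of 30 tested were called (1 with unadjusted p under 0.05 in each mutant). Double mutant male 4 and WT male 1 had 679 and 374 CPM of immune markers, and 605 and 519 CPM of stellate cell and fibroblast markers. The other males had 42.5 to 73.1 CPM and 178 to 216 CPM. This spread enters the fit, so 0 calls in these 2 lists do not show that the females were alike. Of 6 fat cell markers tested, 1 rose in atm mutants and 2 in double mutants (16.7% and 33.3%), and 0 fell past the threshold. Log2 fold changes were positive for 5 and 3 of the 6 and negative for 1 and 3. The lipid droplet gene plin2, on this list, rose in both mutants (adjusted p = 0.0416 and 0.014). It had 29.2 and 40.3 CPM in atm mutant females, 56.9 and 35.3 CPM in double mutant females and 6.90 and 9.87 CPM in WT females. The part of these cells in the results above was not tested.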

How the data were processed

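RNA was measured by polyA RNA sequencing (75 bp single-end reads, per the labels). The authors deposited whole-number counts per gene, neither normalized nor pooled; the submitters' processing notes name FastQC 0.11.8, Trim Galore 0.6.4, cutadapt 3.4, STAR 2.7.6a and edgeR 3.32.1. The genome build, annotation, strandedness and treatment of reads shared by near-identical genes are not given in the sources used here, so values of gene copies and overlapping genes are uncertain. The table held 25099 genes, of which 14280 have LOC names; 5241 of these have a symbol in the RefSeq gene table of the assembly NfurGRZ-RIMD1, used only for names.

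The 11 livers were fitted together with edgeR 4.0.16 (limma 3.58.1, R 4.3.3): TMM scaling, filterByExpr (17849 genes kept), robust glmQLFit and glmQLFTest with 1 mean per sex and genotype (5 residual degrees of freedom), Benjamini-Hochberg adjustment over all genes tested and a threshold of 0.05. Fold changes are log2 values; CPM use TMM-scaled library sizes. Each SE was derived from the F statistic, so it can be too small where a group has few counts. The script was tested on simulated data. TMM factors were 0.707 and 0.640 in WT females and 0.938 to 1.18 in mutant females.

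Named genes are those ranked highest by size of log2 fold change (10 each way against WT females, 5 in other comparisons) that passed the threshold, averaged log2 CPM 1 or more, did not overlap between groups and have a symbol, besides yolk genes, oestrogen receptors, atm, mb21d1 and list members past the threshold. LOC genes without a symbol, rnf19a and the genes kept in the double mutant sex difference were chosen after their values were seen. The female livers and gene lists were chosen with earlier results of these data known. List levels per liver are medians over members with a WT female mean of at least 1 CPM.

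Alternatives were DESeq2 1.42.0, RLE and upper-quartile scaling, TMM without the 20 most-counted genes, no filter beyond 1 count, no robust option, the 6 females alone and leaving out each liver; library sizes alone were added after seeing the data. A liver of an atm mutant male (fish 3), brains and 3-month samples were not analysed here. A few genes counted in the lists are not reported here by name.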

Additional observations from a re-analysis of the deposited data

Results flagged for a closer look

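The effect of the double mutant genotype differed between females and males at 57 genes, by edgeR's test of the interaction. Among those named by rank, the log2 difference of the effect in females minus that in males was 8.79 for soat2, 6.12 for slc22a6l, 3.95 for pigl, 3.39 for pik3ip1 and 2.65 for pprc1 on the higher side. On the lower side it was −10.14 for sqle, −8.76 for tent5aa, −7.47 for cyp51, −7.42 for csgr16h14orf1 and −7.24 for lss. The gene pigl, of glycolipid anchor synthesis, had 8.43 and 6.87 CPM in double mutant females and 1.13 and 1.52 CPM in WT females, and 3.50 and 4.11 CPM in double mutant males and 11.2 and 9.19 CPM in WT males (adjusted p = 0.0165). The gene pik3ip1, an inhibitor of PI3 kinase, had 27.2 and 20.4 CPM in double mutant females and 4.81 and 4.27 CPM in WT females, and 5.15 and 3.76 CPM in double mutant males and 11.1 and 6.70 CPM in WT males (adjusted p = 0.0471). Of these 57 genes, 0 kept their call when any 1 of the 4 females was left out. The interaction includes the difference between WT females and WT males. Of its 45 genes with a lower difference, 31 were among the 489 called higher in WT females than in WT males. Of its 12 with a higher one, 7 were among the 254 called lower. These sets were 2.74% and 1.42% of all genes, and the overlap is partly built in by the shared WT difference. In males tent5aa was barely detected, which left it little room to fall. Double mutant males differed from WT males in 1 gene.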

How the results depend on the processing

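RLE scaling, TMM without the 20 most-counted genes, no filter and upper-quartile scaling kept every count of genes within 1.5 times of its main value, except that upper-quartile scaling gave 29 genes for the interaction; without the robust option the count between mutant groups was 27. With library sizes alone the counts were 1325 in atm mutants (1218 higher), 4912 in double mutants (4702 higher), 4171 in both mutant groups against WT (3932 higher; 822 with TMM, 260 higher), 3958 between WT sexes (271 higher) and 765 for the interaction (704 higher). The 6 females alone gave 3217, 4853, 4549 and, between mutant groups, 1800. DESeq2 gave 1018 (461 higher), 1853 (843 higher), 1624 (712 higher), 437 between mutant groups, 1613 between WT sexes (927 higher), 1035 between double mutant sexes and 786 for the interaction. Upper-quartile scaling split the 869 double mutant calls into 435 higher and 434 lower. Leaving out 1 liver gave 3 to 4 genes in atm mutants, 6 to 51 in double mutants, 0 to 2 between mutant groups, 36 to 291 for both mutant groups, 15 to 310 between WT sexes, 6 to 3024 between double mutant sexes and 0 to 1994 for the interaction. With library sizes alone the sign turned for sec23a in double mutants (0.0143), srp54 (0.0833) and srp72 (0.0252) in both mutant groups, and atm (0.44 in atm mutants, 0.49 in double mutants and 0.47 in both). Leaving out 1 liver gave −0.189 to 0.0401 for atm in atm mutants, positive without atm mutant female 2, and −0.0109 to 0.346 for rnf19a, negative without WT female 4. Of 4109 single-gene values recomputed, 2642 kept direction and side of the threshold, 1452 lost the call, 1249 of them when 1 liver was left out, 7 gained it and 8 turned sign; the cause was not tested. No paired analysis was possible because fish are numbered within each genotype, and the labels link no fish of different genotypes. Genes with few counts, such as mb21d1, cannot be compared at this depth.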
